A study of Mus musculus with 12 samples.

Results

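A set of 10 genes of the Polycomb repressive complexes was examined for SOX2 regions in mouse embryonic stem cells: Eed, Ezh2, Suz12, Jarid2 and Mtf2 of PRC2, and Rnf2, Pcgf6, Phc1, Cbx7 and Rybp of PRC1. They were taken by name, as 10 of 21887 protein-coding genes that RefSeq annotates on GRCm38.p6, the assembly also called mm10. A region counted for a gene when its midpoint lay inside the gene span or within 50 kb of either end. SOX2, a transcription factor of pluripotent cells, was mapped by chromatin immunoprecipitation and sequencing (ChIP-seq) with the antibody Y-17 in E14, an established mouse embryonic stem cell line. The 12 libraries were 3 ChIP and 3 input replicates of asynchronous cells, which were left to cycle, and 3 ChIP and 3 input replicates of mitotic cells. Mitotic cells had been held overnight in nocodazole, a microtubule poison, then fixed, stained for H3S10p, a histone mark of condensed chromosomes, and sorted for it. All cells shared a serum medium (10%) with leukemia inhibitory factor. They also shared gelatin at 0.1%, PD184352 at 0.8 μM, which inhibits MEK, and CHIR99021 at 3 μM, which inhibits GSK3. The replicates of a condition had been pooled before regions were called, which gave 1 list per condition, with 10351 distinct regions in asynchronous and 84 in mitotic cells. Values of single replicates and the sequencing depth are unknown, so the counts carry no replicate error and no test was made. The labelled cell type cannot be checked against expression here; SOX2 regions lay within 50 kb of Sox2 (3), Pou5f1 (6) and Nanog (3) in asynchronous cells.

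Polycomb complexes keep developmental genes silent. In PRC2, EZH2 methylates lysine 27 of histone H3 with the help of EED, which reads the mark, and SUZ12, which holds the complex together, while JARID2 and MTF2 bring the complex to its sites. In PRC1, RNF2 (RING1B) ubiquitinates histone H2A as a partner of a PCGF protein, and the other subunits set the form of the complex: CBX7 and PHC1 belong to canonical PRC1, which reads the PRC2 mark and compacts chromatin, and RYBP belongs to variant forms. Embryonic stem cells express both complexes, and loss of Polycomb subunits disturbs their differentiation.

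Asynchronous SOX2 regions lay within 50 kb of 9 of the 10 genes, against 45.5% of all protein-coding genes, and Rnf2 was the exception. Of all coding genes whose span lay in the range of the members (17.3 to 191 kb), 52.3% had a region. The 10 genes had 29 regions between them, none of them shared by a pair of members, which was 0.280% of the asynchronous list. Jarid2 had 7, Phc1 had 5, Eed and Rybp had 4 each, Mtf2 had 3, Cbx7 and Pcgf6 had 2 each, and Ezh2 and Suz12 had 1 each. At least 3 regions were found at 5 of the 10 genes, against 7.35% of all coding genes and 8.43% of those with a span in the same range. Mitotic regions were absent from the windows of all 10, where 0.836% of coding genes had one. The members were chosen with earlier results of these data known, so these shares describe the 10 genes and do not test them.

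**Figure D1:**
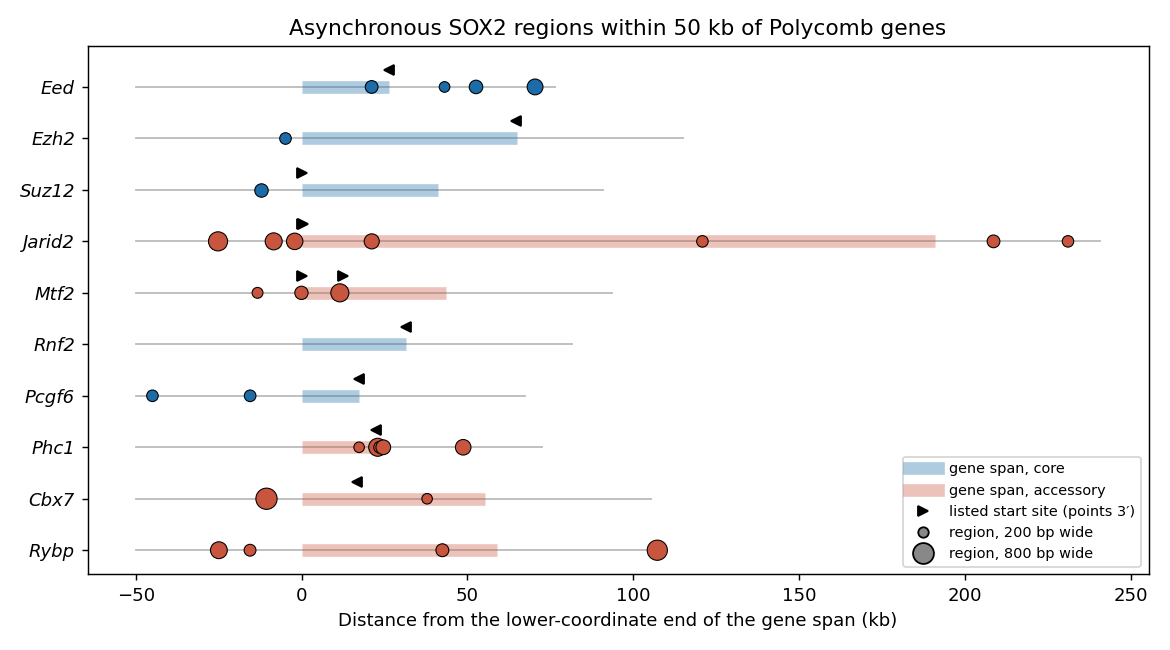
Position of the 29 asynchronous SOX2 regions (circles, area in proportion to width) along the window of each gene, in kb from the end of the gene span with the lower coordinate. Thick bars are gene spans, thin lines the 50 kb on either side, and arrowheads above them the RefSeq start sites that were matched, pointing in the direction of transcription. Jarid2 has 7 regions over its window, the regions of Phc1 crowd at its start, and the Rnf2 window is empty.

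The core of PRC2 ranged from 1 to 4 regions per gene. Eed (chr7:89954654-89980976, on the minus strand) had 1 region inside the gene, 298 bp wide at chr7:89975632-89975929, with its midpoint 5.20 kb from the start site. The other 3 lay upstream, 16.8, 26.3 and 44.1 kb from the gene, and were 209, 336 and 461 bp wide (chr7:89997668-89997876, chr7:90007088-90007423 and chr7:90024835-90025295). Eed was the nearest coding gene to all 4, and no other coding gene lay within 50 kb of the 3 upstream regions. At 4 regions Eed stood with the 3.08% of coding genes that had as many or more. It had 3.17 regions per 100 kb of its window (the gene with 50 kb on each side), a density reached by 0.877% of coding genes.

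Ezh2 and Suz12 had 1 region each, and neither region lay inside the gene. Ezh2 (chr6:47530274-47595270), the methyltransferase, had 1 region of 248 bp at chr6:47525274-47525521. It lay 4.88 kb beyond the 3′ end of Ezh2 and 69.6 kb from its start site, inside the neighbouring gene Cul1, a scaffold of ubiquitin ligases. Suz12 (chr11:79993106-80034123) had 1 region of 332 bp at chr11:79980635-79980966, 12.3 kb upstream of its start, with Suz12 as the nearest coding gene. At least 1 region was found at 45.5% of coding genes, so the count of neither gene stood apart from that share. By density, Ezh2 had 0.606 and Suz12 0.709 regions per 100 kb, levels reached by 39.4% and 36.0% of coding genes.

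The accessory genes of PRC2, Jarid2 and Mtf2, had 7 and 3 regions, against 4, 1 and 1 at Eed, Ezh2 and Suz12, so that Eed had more than Mtf2 and was also denser than both accessory genes. The nearest regions of Jarid2 and Mtf2 lay at or within a few kb of a start site. Jarid2 (chr13:44730774-44921643) encodes a DNA-binding cofactor of PRC2 and is the longest member, with a span of 191 kb. Its 7 regions comprised 3 upstream of the gene, 2 inside it and 2 downstream. The upstream ones became wider with distance from the gene: 500 bp at 2.08 kb, 533 bp at 8.41 kb and 673 bp at 25.2 kb, at width percentiles 91.2, 93.6 and 98.3 of the asynchronous list. From the nearest to the farthest they were at chr13:44728447-44728946, chr13:44722098-44722630 and chr13:44705248-44705920. The first intragenic region was 420 bp wide at chr13:44751723-44752142 and lay 20.7 kb from the nearest start site. The second was 244 bp wide at chr13:44851529-44851772 and lay 120 kb from it. The downstream regions, of 299 bp (chr13:44939291-44939589) and 243 bp (chr13:44961777-44962019), were 17.8 and 40.3 kb past the gene and inside Dtnbp1, the dysbindin gene. At least 7 regions were found at 0.334% of coding genes. A long gene also has a long window, and per 100 kb Jarid2 had 2.41 regions, a level that 3.06% of coding genes reached.

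Mtf2 (chr5:108065660-108109219), a Polycomb-like protein that binds unmethylated CpG-rich DNA, had 3 regions, a number that 7.35% of coding genes reached, and 2.09 per 100 kb, a level that 3.89% reached. The narrowest, 218 bp at chr5:108052268-108052485, lay 13.3 kb upstream. The second, 325 bp wide at chr5:108065456-108065780, spanned the 5′ end of the gene, with its midpoint 0.056 kb from a start site. The third, 601 bp wide (percentile 96.9) at chr5:108076900-108077500, lay inside the gene and 0.965 kb from the midpoint to a second, internal start site in the promoter table. Both starts that the table lists for Mtf2 thus had a region within 1 kb. The DNA at the first start is shown because it is 1 of the 2 member promoters that a SOX2 region overlapped. It is the part of the RefSeq promoter window (GRCm38.p6, plus strand) that lies before the gene span, chr5:108065424-108065659, 5′ to 3′, with the 204 bases covered by the region in capitals.

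Mtf2 promoter: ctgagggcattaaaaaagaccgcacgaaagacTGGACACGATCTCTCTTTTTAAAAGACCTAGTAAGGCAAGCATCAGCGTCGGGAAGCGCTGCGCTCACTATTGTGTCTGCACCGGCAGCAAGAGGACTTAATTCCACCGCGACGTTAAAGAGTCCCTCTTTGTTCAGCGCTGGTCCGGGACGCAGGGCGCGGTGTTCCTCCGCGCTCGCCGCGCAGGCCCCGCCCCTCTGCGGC

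The covered stretch held 1 match to a SOX core variant, CTTTGT, on the gene's own strand, with its first base 91 bases before the start site. Neither the SOX core CATTGT nor the octamer ATGCAAAT, the letters that POU factors such as OCT4 read, was in the window.

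In the catalytic core of PRC1, Rnf2 had no region and Pcgf6 had 2. Rnf2 (chr1:151469398-151500991), the E3 ubiquitin ligase of the complex, had none within 50 kb. Its nearest region lay 95.2 kb upstream, and the nearest on the other side was 234 kb away. Peak names carry numbers in genome order, and 33.6% of the asynchronous numbers are not in the list. At Rnf2, however, the numbers ran without a gap between the regions on either side, so that no numbered peak was missing from its window. The same was true of Suz12, Mtf2, Pcgf6 and Cbx7. Between the listed regions that flank the windows, which reach further than 50 kb, 7 numbers were missing at Phc1, 2 each at Eed, Jarid2 and Rybp and 1 at Ezh2.

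Pcgf6 (chr19:47033617-47050939) encodes the PCGF subunit of the variant complex PRC1.6, which represses germline genes. It had 2 narrow regions, of 249 bp (chr19:47017977-47018225) and 246 bp (chr19:46988519-46988764), 15.5 and 45.0 kb past its 3′ end. The nearer lay inside Ina, a neurofilament gene, and the farther inside Nt5c2, a nucleotidase gene, and neither was closest to Pcgf6. Of coding genes, 18.4% had as many regions as Pcgf6 or more, and 9.01% reached its 1.70 per 100 kb.

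The accessory genes of PRC1 all had a region inside the gene span. Phc1 (chr6:122317731-122340227, on the minus strand), a polyhomeotic protein that links PRC1 particles through its SAM domain, had 5 regions and the highest density of the members, 4.08 per 100 kb, reached by 0.206% of coding genes. A region of 205 bp at chr6:122334981-122335185 lay inside the gene, 5.14 kb from its start. A further 3 lay just upstream, of 597, 252 and 397 bp, with midpoints 0.461, 1.03 and 2.14 kb from the gene. Gaps of 147 and 787 bp separated them. They were at chr6:122340390-122340986, chr6:122341134-122341385 and chr6:122342173-122342569, and together occupied 2.18 kb. Of the 10309 runs of 3 consecutive asynchronous regions on a chromosome, 3 were this short or shorter, that of Phc1 included. This run was singled out after its values were seen. The fifth region, 446 bp wide at chr6:122366245-122366690, lay 26.2 kb upstream. Phc1 was the nearest coding gene to all 5, and M6pr, the gene of a mannose 6-phosphate receptor, lay within 50 kb of each.

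The region nearest the start of Phc1, at width percentile 96.7, overlapped its promoter window by 88 bases. The sequence shown is that window without the transcribed part, chr6:122340228-122340477 of GRCm38.p6 (RefSeq), read on the minus strand 5′ to 3′, and capitals mark the bases within the region.

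Phc1 promoter: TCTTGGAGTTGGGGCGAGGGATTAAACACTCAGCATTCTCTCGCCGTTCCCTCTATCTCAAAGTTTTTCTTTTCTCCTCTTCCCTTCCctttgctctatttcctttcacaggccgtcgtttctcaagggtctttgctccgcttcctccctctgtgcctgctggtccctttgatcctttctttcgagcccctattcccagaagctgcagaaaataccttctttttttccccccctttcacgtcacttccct

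Neither CATTGT nor CTTTGT nor ATGCAAAT was found in the Phc1 window on either strand. The capitals stand at the distal end of the window, since most of the 597 bp of the region lay further upstream, in sequence not used here.

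Cbx7 and Rybp differed in where their widest regions lay. Cbx7 (chr15:79915804-79971143), which reads the PRC2 mark, had 2 regions. The wider, 829 bp at chr15:79904809-79905637, was the widest of all 29, at percentile 99.6, and carried 3 listed summits. It lay 10.6 kb past the 3′ end of Cbx7 and inside Apobec3, a cytidine deaminase gene. The other was 204 bp wide, at chr15:79953561-79953764, and inside the Cbx7 span, but 21.0 kb upstream of the only start site listed for Cbx7 in the promoter table. With the same count as Pcgf6, Cbx7 had 1.29 regions per 100 kb, which 13.5% of coding genes reached. Rybp (chr6:100228565-100287358), which recruits PRC1 without the PRC2 mark, had 4 regions, as Eed did, and 2.52 per 100 kb, which 2.76% of coding genes reached. No other coding gene lay within 50 kb of any of them. The one of 306 bp, at chr6:100270867-100271172, was inside the gene. Those of 258 bp (chr6:100212893-100213150) and 522 bp (chr6:100203363-100203884) lay 15.5 and 24.9 kb from the end with the lower coordinate. The fourth, 751 bp wide with 2 summits and at percentile 99.2, lay 48.5 kb from the other end, at chr6:100335460-100336210. This was the region closest to the 50 kb limit among those counted. Just outside the limit lay a region 51.1 kb from Jarid2 and one 53.1 kb from Pcgf6.

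Core and accessory subunits differed in their counts in both complexes. The core was taken as Eed, Ezh2, Suz12, Rnf2 and Pcgf6, and the accessory subunits as Jarid2, Mtf2, Phc1, Rybp and Cbx7. The 5 core genes had 0 to 4 regions, with a median of 1 and 8 in all. The 5 accessory genes had 2 to 7, with a median of 4 and 21 in all. The ranges overlapped, since Eed (4) stood above Mtf2 (3) and Cbx7 (2), and Pcgf6 (2) equalled Cbx7. Over all coding genes the median was 0 and the mean 0.770. Within PRC2 the core genes had a median of 1 and the accessory pair a median of 5. Within PRC1 these were 1 and 4. The accessory genes were longer, with a median span of 55.3 kb against 31.6 kb. Per 100 kb of window, the medians were 2.41 for accessory genes (1.29 to 4.08) and 0.709 for core genes (0 to 3.17), so the order held when window length was taken into account. A single gene is not a replicate of its class, and the difference was not tested.

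**Figure D2:**
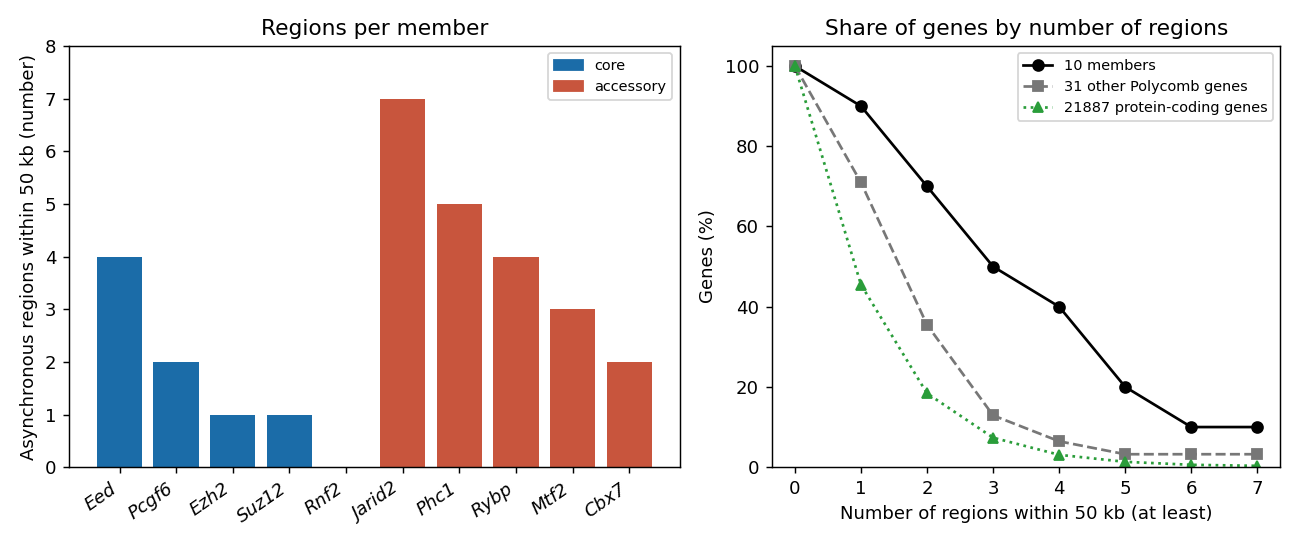
Left, number of asynchronous regions within 50 kb of each member, with core genes in blue and accessory genes in red. Right, percentage of genes with at least the number of regions on the horizontal axis, for the 10 members, the 31 other Polycomb genes and all 21887 protein-coding genes. The bars run from 0 at Rnf2 to 7 at Jarid2, and at 3 or more regions the curves hold 5 of the 10 members, 12.9% of the other Polycomb genes and 7.35% of coding genes.

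Accessory genes also had regions closer to the gene span, though their spans were longer. All 5 had a region with its midpoint inside the gene span, as 14.7% of coding genes did, while among core genes only Eed had one. Median spans were 55.3 kb for accessory genes, 31.6 kb for core genes and 17.2 kb for all coding genes. Being inside a gene was not adjusted for span length. Within 10 kb of the span were regions of all 5 accessory genes and of 2 core genes, Eed and Ezh2. The share was 23.8% of coding genes and 30.1% of those with a span in the range of the members. At 25 kb, 9 of the 10 members had a region (33.4% of coding genes and 39.6% of those in the span range). At 100 kb all 10 did (62.4% and 68.6%). Suz12 and Pcgf6 first had a region between 10 and 25 kb, and Rnf2 between 50 and 100 kb.

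**Figure D3:**
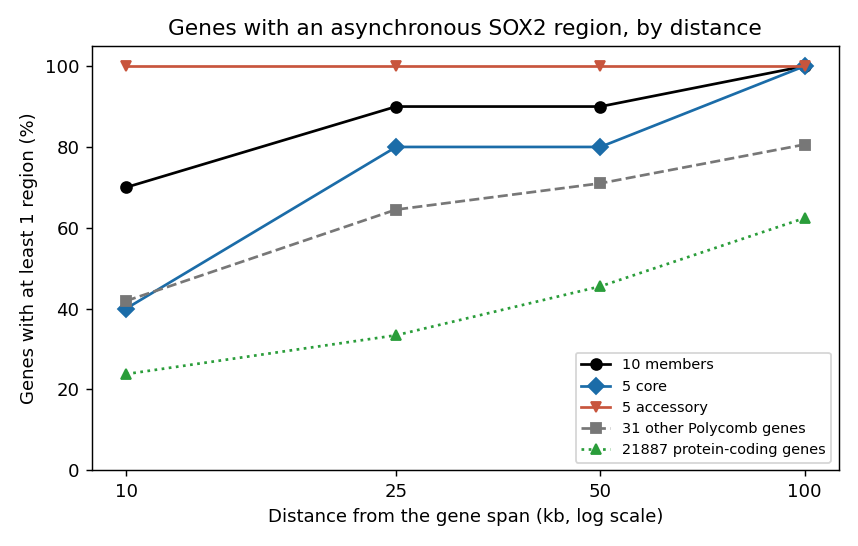
Percentage of genes with at least 1 asynchronous region within 10, 25, 50 or 100 kb of the gene span (log axis), for the members, their core and accessory genes, other Polycomb genes and all protein-coding genes. Accessory genes stand at 100% at each distance, and core genes go from 2 of 5 at 10 kb to 5 of 5 at 100 kb.

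The regions near the members were of mixed width, with several wide ones at accessory genes. Their median was 325 bp, with a range of 204 to 829 bp, and 18 of 29 (62.1%) were wider than the median of the asynchronous list, 289 bp. In the widest 10% of the list were 8: 3 upstream of Jarid2, 2 of Rybp, and 1 each of Mtf2, Phc1 and Cbx7. None of these 8 belonged to a core gene, where the widest region was the 461 bp region upstream of Eed. Core genes had only 8 regions, of which a share of 10% would be few or none, so this absence does not set them apart. The 8 regions of core genes had a median of 274 bp and the 21 of accessory genes a median of 397 bp, and both sets began at a similar width (209 and 204 bp). These medians pool regions of few genes, since Eed gave 4 of the 8 and Jarid2 gave 7 of the 21, and the difference was not tested. Of the 29, 2 held more than 1 summit, those at Cbx7 and Rybp, as 1.65% of all asynchronous regions did. Width is a length of called DNA and not a measure of occupancy.

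**Figure D4:**
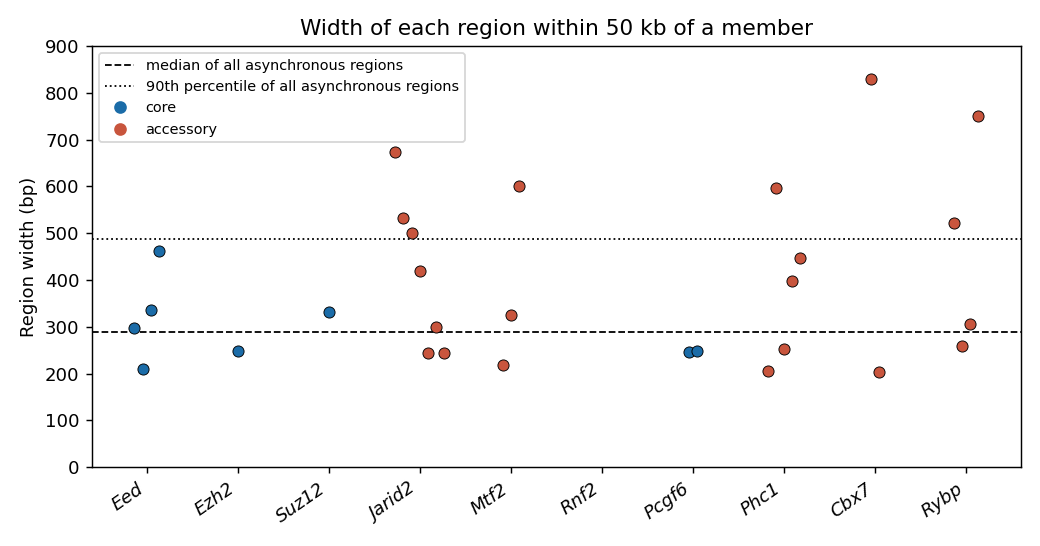
Width in bp of each asynchronous region, by gene, ordered within a gene by position (core genes blue, accessory genes red). The dashed line is the median of all asynchronous regions (289 bp) and the dotted line their 90th percentile (487 bp). All 8 points above the dotted line belong to accessory genes, which have 21 of the 29 points, and Rnf2 has no point.

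Most of the regions lay outside the genes. Of the 29, 7 had their midpoint inside a member. Among those outside a gene whose strand was matched, 13 lay upstream and 6 downstream, and the remaining 3 flanked Rybp. For 25 regions a start site of the member was matched, and the median distance to it was 20.7 kb. Only 3 of these, 2 at Mtf2 and 1 at Phc1, were within 1 kb of a start. For 6 of the 29 another coding gene was nearer: Cul1 for the region of Ezh2, Dtnbp1 for 2 of Jarid2, Nt5c2 and Ina for those of Pcgf6, and Apobec3 for the wide region of Cbx7. Each of the 6 midpoints lay inside that other gene. Proximity does not show which gene, if any, a region acts on. For 14 regions, all at Eed, Jarid2, Mtf2 and Rybp, no other coding gene lay within 50 kb.

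Promoter windows of 300 bp, from 250 bases before a start site to 50 after it, were matched for 9 of the 10 members, 11 windows in all. An asynchronous region overlapped 2 of the 11, at Mtf2 and Phc1, against 1.56% of 32851 windows of the same length. Among the other 9 windows, the gap to the nearest region was 0.414 kb at the internal start of Mtf2, 1.58 and 2.07 kb at the starts of Jarid2, 4997 bp at Eed and 11.9 kb at Suz12. It was 20.7 kb at Cbx7, 32.6 kb at Pcgf6, 69.5 kb at Ezh2 and 94.8 kb at Rnf2.

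Short SOX and POU letters were searched on both strands of these windows. CATTGT was in none of the 11 windows, and in 12.6% of all windows and 26.8% of the 512 windows that an asynchronous region overlapped. CTTTGT was in 3 of the 11, both Mtf2 windows and that of Ezh2, and in 18.7% and 34.4%. ATGCAAAT was in none of the 11, and in 1.74% and 4.88%. The composite of CATTGT followed after 1 base by ATGCAAAT was in no window of the table. With up to 2 mismatches it was in none of the 11, and in 0.408% of all windows and 5.27% of the overlapped ones. The letters of a match are a description and not a bound site, and windows without them say nothing of the regions, most of which lay outside these windows.

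Mitotic regions were far from the members. None of the 84 lay within 50 kb, which allows up to 3.57% of mitotic regions by the limit of 3 counts. The upper end of the exact 2-sided 95% Clopper-Pearson interval was 4.30%. Both values cover counting error only. With 0.280% of the asynchronous regions near the members, a count of 0 among 84 was not distinguishable from the asynchronous share at this number of regions. The closest was 1.19 Mb from Phc1, at chr6:121130874-121131029, with Mical3 as its nearest coding gene. The next were 3.68 Mb from Cbx7, inside Scube1, and 6.05 Mb from Jarid2. For Ezh2, Mtf2, Rybp, Suz12, Rnf2 and Eed the distances were 7.74, 11.6, 12.0, 14.3, 20.1 and 20.6 Mb. Chromosome 19, which carries Pcgf6, had no mitotic region. Over all coding genes on chromosomes with a mitotic region the median distance was 9.35 Mb, and the 9 members had a median of 11.6 Mb. The mitotic list had the looser threshold of the 2, and the conditions also differ in the nocodazole treatment, the staining and the sort, whose part in the difference cannot be told apart.

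**Figure D5:**
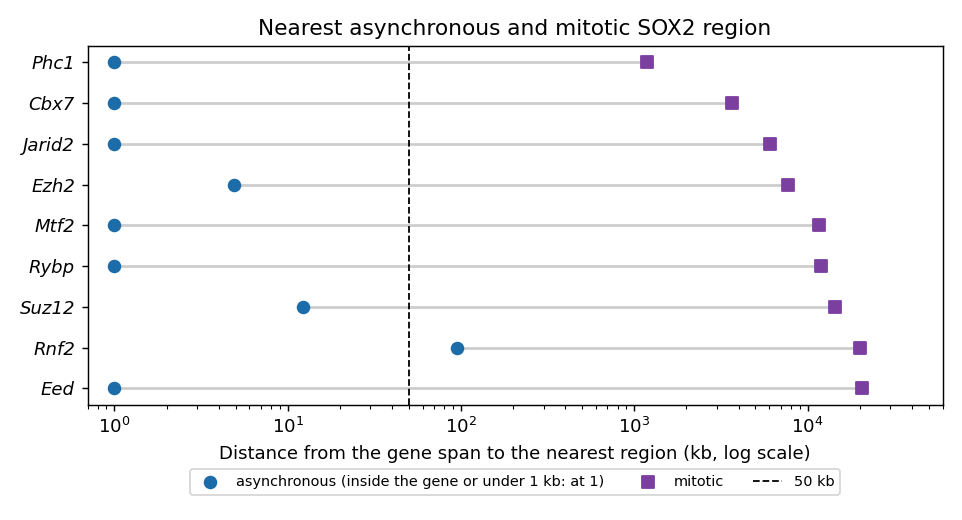
Distance in kb (log axis) from the gene span to the nearest asynchronous region (blue circles, with distances under 1 kb drawn at 1) and the nearest mitotic region (purple squares) for the 9 members on a chromosome with a mitotic region. The dashed line marks 50 kb, with 8 of the 9 blue circles to its left and every purple square to its right, from 1187 kb at Phc1 to 20603 kb at Eed.

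The other Polycomb genes had fewer regions per gene than the members, whose median was 2.50. Their median span was 28.3 kb against 42.3 kb for the members, and the median densities were 0.739 and 1.90 per 100 kb of window. Of 31 further Polycomb genes, most of them subunits or partners of PRC1 and PRC2, 22 (71.0%) had an asynchronous region within 50 kb. The share of coding genes was 45.5%, and the 31 had a median of 1 per gene. Their 44 counts came from 41 distinct regions, since Epop and Pcgf2 share 2 and Cbx2 and Cbx8 share 1. At least 3 were found at 4 of them (12.9%). Among 7 genes of PRC2, 5 had 1 or 2 regions: Rbbp7 and Epop had 2 each, Ezh1, Rbbp4 and Aebp2 had 1 each, and Phf1 and Phf19 had none. The other 24 were genes of PRC1 and its partners together with Bap1 and Asxl1 of the H2A deubiquitinase, and 17 of them had a region. Auts2, a partner of PCGF5 in variant PRC1, had 9, all inside the gene or within 10 kb of it. Its span is 1106 kb, and it had 0.746 regions per 100 kb, close to the 0.709 of Suz12. Asxl1, a cofactor of the H2A deubiquitinase BAP1, had 4 (2.53 per 100 kb). Scmh1, a sex comb protein, and Usp7, a deubiquitinase found with variant PRC1, had 3 each, and Bcor, of the variant complex PRC1.1, had 2.

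Close relatives of 4 accessory members, Phc1, Rybp, Mtf2 and Cbx7, had fewer regions than the members themselves. The members were chosen with earlier results of these data known, so this order is a description and was not tested. Against 5 at Phc1, its paralogs Phc2 and Phc3 had 1 and 2. Against 4 at Rybp, its paralog Yaf2 had none, with the nearest region 61.0 kb away. Against 3 at Mtf2, the other Polycomb-like genes Phf1 and Phf19 had none within 50 kb, and their nearest regions were 104 and 323 kb away. Against 2 at Cbx7, the CBX genes Cbx2, Cbx6 and Cbx8 had 1 each. These 3 have spans of 4.61 to 10.4 kb against 55.3 kb at Cbx7. Per 100 kb of window they had 0.906 to 0.956 regions against 1.29. Among relatives of the core members the order was mixed. Ring1, the paralog of Rnf2, had 2 regions against none, the nearer 3.54 kb from the gene. Ezh1 had 1, as Ezh2 did. Of the PCGF genes, Pcgf2 and Pcgf5 had 2 each, as Pcgf6 did, while Pcgf3 with 1 and Bmi1 and Pcgf1 with none had fewer. Of the 31 genes, 0 had a mitotic region within 50 kb.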

How the data were processed

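Reads were aligned and regions called by the authors; the submitters' processing notes name Bowtie2 (2.2.1), MACS2 without a version, and mm10. Per the deposited names, each condition's ChIP was set against its input over 3 pooled replicates and blacklisted regions were taken away. The q-value tags in these names were read as 0.01 (asynchronous) and 0.05 (mitotic). The lists deposited by the authors hold positions in bp (other than a measured level) and peak names alone, so depth and peak strength are unknown.

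Starts were converted to count from 1. Of the 10532 asynchronous entries, 181 were merged with another of identical coordinates. Gene spans, start sites and promoter windows came from RefSeq tables of GRCm38.p6. All 10 members and all 31 other Polycomb genes were matched by symbol. Counting was checked on made-up spans and regions. Python 3.11.15, pandas 2.3.3 and SciPy 1.17.1 were used.

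The members, the lists, the core and accessory classes, the motifs and the rule for named genes were chosen with earlier results of these data known. Named were all members with all their regions and the nearest coding genes of these, and of the other Polycomb genes the 6 with the most regions (ties alphabetical). The other Polycomb genes were singled out as relatives or to account for a count. The gaps in peak numbers and the runs of 3 regions were looked at after the data were seen. Some values of single genes are not reported here.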

Additional observations from a re-analysis of the deposited data

How the results depend on the processing

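The alternatives were windows of 10, 25 and 100 kb, any base of a region in place of its midpoint, the nearest coding gene only, regions wider than the median, every deposited entry, and windows around 5′ ends. The number of members with a region was 7 at 10 kb, by nearest gene, among wider regions and around the 5′ ends of 9 members, where Rybp had no start site; it was 10 at 100 kb and 9 otherwise. The shares of all coding genes at these settings were 23.8, 23.1, 26.7, 37.2 and 62.4%. The median of accessory genes exceeded that of core genes by 3 regions. It was also the higher in 10 of 10 alternatives, by 2 to 4 regions in those that count regions per gene. These alternatives recount the same 10 genes and largely the same regions, so they are not independent support for the order. The excess was 2.50 with Pcgf6 counted as accessory, and 1.70 regions per 100 kb of window, which is another unit. By nearest gene the core median was 0, because the regions of Ezh2 and Pcgf6 lay in other genes. Other Polycomb genes with a region numbered 13 of 31 at 10 kb, 14 by nearest gene and 11 among wider regions, against 22. Mitotic counts were 0 throughout. Composite motif matches in the 11 member promoter windows were also 0 at both settings. The exact composite was in no window at all, and the form with up to 2 mismatches was in 0.408% of windows. A count of 0 in 11 windows could therefore hardly have come out otherwise. Of 79 values of single members, 57 stayed within 1.5 times. No paired analysis was possible because each condition has 1 list of pooled replicates, and for the same reason no replicate could be left out.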
